A study of Mus musculus with 4 samples.

Results

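The TRIM genes described here are the 67 rows of the count table, of 25509 gene rows in all, whose Ensembl identifier carries a GRCm38 symbol made of Trim, a number and at most one letter from a to e. Trim21, the gene targeted in the knockout mice, is one of them and is given apart from the other 66. The RNA came from splenocytes, a cell suspension of whole spleen, of mice that were 8 weeks old, shaved on the back and given UVB at 100 mJ/cm2 while moving freely. The 2 groups were wild type and Trim21-/- (named Trim21 KO in the titles, called knockout here), with 2 libraries each, and both had received UVB. The labels give exposures of 1 or 3 weeks without saying which applied. They do not name the strain or the exons that the Trim21 allele lacks, and they do not say whether the libraries came from separate mice. The 2 libraries of each genotype differed in sex-linked transcripts (given below), so they were not the same mouse, and p-values rest on the spread between 2 libraries per genotype. Spleen mixes lymphocytes, phagocytes and red cell precursors, so in these bulk libraries fewer cells of a type and less RNA per cell cannot be told apart.

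TRIM proteins share an N-terminal module of a RING finger, one or a pair of B-boxes and a coiled coil, and most are E3 ubiquitin ligases. They differ in the C-terminal part, which is often a PRY-SPRY domain that binds the target. Many are induced by interferons and act in antiviral defence or in signalling from nucleic acid sensors. Others serve in chromatin, on microtubules, in muscle or in the last steps of red cell formation. Mouse chromosome 7 holds a compact array of TRIM genes related to the retroviral restriction factor TRIM5 of primates, and Trim21, the cytosolic antibody receptor and Ro autoantigen, lies on the same chromosome.

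Genes of that array are close copies, which bears on how reads could be assigned to them. The first 75 coding bases, the length of one read here, are shown for 3 sets of copies because they mark where copies can and cannot be told apart. Capitals mark bases that differ from the first gene of each set, and all are GENCODE M21 transcripts on GRCm38, written 5′ to 3′.
Trim12a: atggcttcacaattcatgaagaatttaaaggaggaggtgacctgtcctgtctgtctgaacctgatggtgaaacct
Trim12c: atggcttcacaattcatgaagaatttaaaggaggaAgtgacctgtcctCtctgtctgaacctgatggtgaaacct
Trim5: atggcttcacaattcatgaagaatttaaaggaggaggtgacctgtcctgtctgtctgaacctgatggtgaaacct
Trim34a: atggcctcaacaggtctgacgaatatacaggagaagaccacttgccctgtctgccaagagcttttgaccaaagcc
Trim34b: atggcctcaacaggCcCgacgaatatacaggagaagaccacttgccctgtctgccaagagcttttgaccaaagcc
Trim30a: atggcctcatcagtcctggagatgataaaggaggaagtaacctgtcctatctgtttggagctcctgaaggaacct
Trim30b: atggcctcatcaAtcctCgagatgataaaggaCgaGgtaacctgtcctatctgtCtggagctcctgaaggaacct
Trim30d: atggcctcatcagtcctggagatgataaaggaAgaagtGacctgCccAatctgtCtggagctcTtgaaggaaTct
Trim5 and Trim12a were identical over this stretch, and Trim12c differed from Trim12a at 2 positions. Trim34b differed from Trim34a at 2 positions, while Trim30b and Trim30d differed from Trim30a at 5 and 7. Over the aligned bases of the longest coding sequences, Trim34a and Trim34b were 98.2% identical, Trim5 and Trim12c 96.6%, Trim12a and Trim12c 96.4%, and Trim30a and Trim30d 90.2%. The coding sequence of Trim12a is shorter, with 891 bases against 1491 in Trim12c, so their value covers 891 aligned bases. Trim21 was more distant, between 60.7% and 66.4% identical over aligned bases to Trim68 and to each gene of the array. The highest value, with Trim30b, covers 557 aligned bases.

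How far this could touch the counts was measured as the share of all 75-base windows of a gene's transcripts that also occur, letter for letter, in a transcript of another gene. Trim34b had 42.5% of its windows in common with Trim34a, and Trim34a had 29.5% in common with Trim34b. The shares were 20.6% for Trim5, 16.9% for Trim12c, 5.4% for Trim30d, 5.25% for Trim12a, 4.98% for Trim30a and 0.078% for Trim30b. For Trim30c, Trim21, Trim68, Trim10 and Trim58 the share was 0, so their reads of this length belong to one gene each in this annotation. The counts of these genes are therefore uncertain in how they are split between copies, most of all those of Trim34b, Trim34a, Trim5 and Trim12c. Outside chromosome 7, Trim43a, Trim43b and Trim43c shared 26.2% to 33.3% of their windows with other genes. Trim17 shared 17% of its windows, all with the histone gene Hist3h2a, and Trim47 shared 5.66% with Trim65, which it overlaps by 5365 bases on the same strand.

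Promoter windows are shown for the red cell genes Trim10 and Trim58 and for the 4 genes of the chromosome 7 array whose window held a match to the element described below. Each is the 250 bases before the RefSeq gene start on GRCm38.p6, on the gene's own strand. In Trim10 (plus strand, chr17:36869324-36869573) and Trim58 (plus strand, chr11:58640215-58640464), capitals mark matches to the motif of GATA factors, searched on both strands as the letters AGATAA and AGATAG and the letters TGATAA and TGATAG.
Trim10: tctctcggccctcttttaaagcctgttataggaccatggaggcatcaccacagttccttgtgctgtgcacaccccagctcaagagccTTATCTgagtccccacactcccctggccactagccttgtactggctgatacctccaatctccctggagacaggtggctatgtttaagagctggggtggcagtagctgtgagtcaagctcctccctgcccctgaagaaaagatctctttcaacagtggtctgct
Trim58: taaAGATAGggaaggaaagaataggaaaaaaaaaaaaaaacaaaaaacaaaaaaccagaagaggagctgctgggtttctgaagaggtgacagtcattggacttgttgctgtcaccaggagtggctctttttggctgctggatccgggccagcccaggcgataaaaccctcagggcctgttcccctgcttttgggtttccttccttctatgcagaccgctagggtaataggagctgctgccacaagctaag
In the array genes, capitals mark matches to the element bound by interferon regulatory factors, searched on both strands as GAAA, then 2 bases of any kind, then GAAA: Trim5 (minus strand, chr7:104288107-104288356), Trim12c (minus strand, chr7:104353350-104353599), Trim30a (minus strand, chr7:104465194-104465443) and Trim30d (minus strand, chr7:104507850-104508099).
Trim5: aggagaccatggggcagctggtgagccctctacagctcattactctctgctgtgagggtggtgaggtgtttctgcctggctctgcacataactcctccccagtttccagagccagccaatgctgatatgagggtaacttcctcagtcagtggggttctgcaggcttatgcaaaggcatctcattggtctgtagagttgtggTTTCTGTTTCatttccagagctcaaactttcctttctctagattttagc
Trim12c: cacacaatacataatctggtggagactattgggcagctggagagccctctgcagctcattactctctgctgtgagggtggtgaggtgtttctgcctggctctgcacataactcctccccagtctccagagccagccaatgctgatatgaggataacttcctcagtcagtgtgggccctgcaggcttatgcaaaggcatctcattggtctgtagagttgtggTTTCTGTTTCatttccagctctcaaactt
Trim30a: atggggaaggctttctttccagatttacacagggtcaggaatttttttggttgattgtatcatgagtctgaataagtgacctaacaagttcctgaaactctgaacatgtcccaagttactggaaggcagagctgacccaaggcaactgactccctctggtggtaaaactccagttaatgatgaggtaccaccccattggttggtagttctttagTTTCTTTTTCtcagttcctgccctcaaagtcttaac
Trim30d: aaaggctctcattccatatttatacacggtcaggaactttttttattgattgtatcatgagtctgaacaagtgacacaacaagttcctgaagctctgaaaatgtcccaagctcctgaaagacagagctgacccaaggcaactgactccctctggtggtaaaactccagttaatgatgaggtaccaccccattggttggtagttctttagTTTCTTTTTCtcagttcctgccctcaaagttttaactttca
The Trim30a and Trim30d windows shown shared an identical run of 118 bases, and those of Trim5 and Trim12c one of 71 bases. Trim30a has another RefSeq start, whose window (minus strand, chr7:104446126-104446375) held no match to the element and is not shown. Of the 67 TRIM genes, 52 had a RefSeq promoter entry, with 66 windows in all. The interferon regulatory factor element occurred in 5 of these windows (7.58%), those of the 4 genes printed and of Trim26, and in 2.98% of 32851 windows of all genes. The GATA letters occurred in 11 TRIM windows (16.7%) and in 26.5% of all windows. CCACCC, the letters bound by Krüppel-like factors, occurred in 30 TRIM windows (45.5%), that of Trim10 included, and in 28.1% of all windows. A match is a string of letters and was not tested as a binding site.

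Library totals ran from 36173694 to 41924885 counts, and levels are given as CPM, counts per 1000000 of a library size scaled by the trimmed mean of M values (TMM). The scaling factor of knockout library 1 was 0.669 and the others were 1.03 to 1.29. Libraries numbered 1 had 0.0389 to 0.0452 CPM of Xist, which is expressed from the inactive X of females, and libraries numbered 2 had 288 and 932 CPM. Summed Y-linked transcripts had the opposite distribution (108 and 109 CPM against 0), so each genotype held 1 library of male and 1 of female pattern. With edgeR's quasi-likelihood test, 798 of 13532 genes passed as higher and 53 as lower in the knockout at an adjusted p under 0.05, the threshold used throughout. Of the marker lists, 15 of 15 erythroid, 13 of 13 neutrophil and 8 of 8 cell cycle genes were higher (beside 47.9% of all genes). Of these, 7, 13 and 7 passed (beside 5.9% of all genes). Of 9 B cell and 9 T cell genes all were lower and 0 passed by edgeR, 5 and 6 with an unadjusted p under 0.05 (52.1% and 12.3% of all genes were lower, and lower at that p).

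Of the 67 TRIM genes, 8 had 0 counts in every library and 13 had counts but too few for the low-count filter. The other 46, Trim21 among them, passed the filter. The 8 at 0 were Trim31, Trim50, Trim52, Trim54, Trim60, Trim67, Trim71 and Trim75. A count of 0 allows up to 3 counts, or 0.0642 to 0.117 CPM depending on the library. None of the 13 below the filter had more than 16 counts in a library. They included Trim38, a regulator of nucleic acid sensor signalling, with 0, 3, 0 and 0 counts (wild-type libraries 1 and 2, then knockout libraries 1 and 2, the order used throughout), and Trim66, with 6, 6, 0 and 0. The muscle members Trim55, Trim63 and Trim72 had at most 6 counts in a library. Of 5 muscle markers, Myh4 was at 0 in every library and Ckm reached at most 0.0677 CPM, while Mylpf, a myosin light chain, had 5.85, 5.67, 34.9 and 17.0 CPM and passed as higher (adjusted p 0.040). Acta1 stayed under 1 CPM (4.06 ± 1.04 on the log2 scale, adjusted p 0.065) and Tnnt3 was lower in both knockout libraries (-0.80 ± 0.53, adjusted p 0.35).

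Set side by side per length, as RPKM (CPM per kilobase of exon, TMM-scaled), 15 TRIM genes were above 10 RPKM in wild type, 20 lay between 1 and 10, and 24 with counts lay below 1. The highest wild-type level was that of Trim34a (42.8 ± 4.58 RPKM, SD, n = 2), whose count is uncertain as given above. Trim28, the corepressor that binds KRAB zinc finger proteins, followed with 39.7 ± 16.6 RPKM. Trim10 had 31.7 ± 22.3 RPKM and Trim30a, an interferon-induced inhibitor of Toll-like receptor signalling, 24.96 ± 10.3 RPKM. These 4 genes differed from their neighbours in the order by less than the larger SD of each pair. Trim12c (20.3 ± 6.04), Trim8 (19.1 ± 2.90), Trim26 (19.0 ± 3.12) and Trim11 (18.9 ± 1.94 RPKM) came next and were not separable either. In the knockout the order was led by Trim10 (283 ± 69.8 RPKM), Trim28 (51.3 ± 9.47), the membrane-anchored Trim59 (48.6 ± 9.34) and Trim34a (18.7 ± 3.04 RPKM). Trim58 moved from rank 27 to rank 10.

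**Figure D1:**
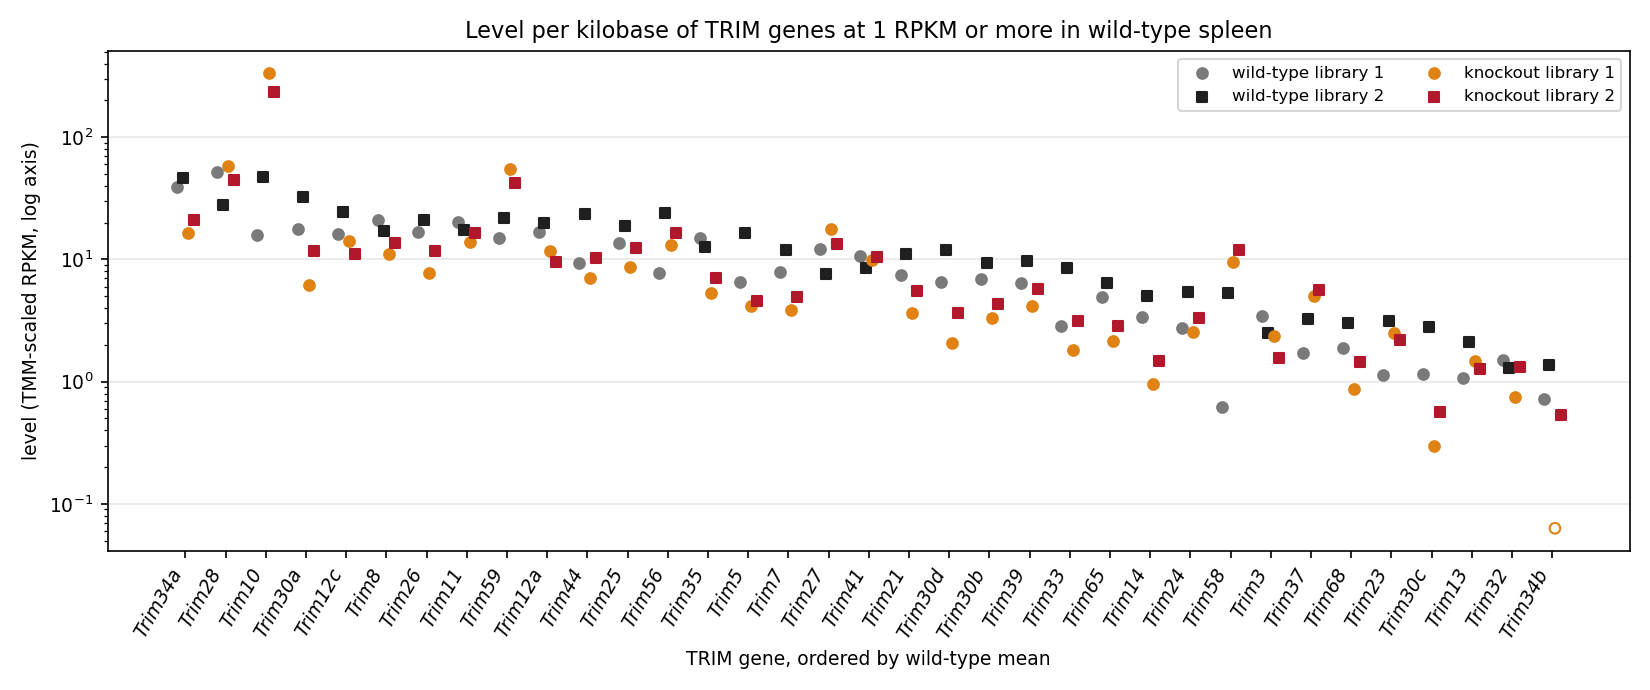
Level per kilobase of exon (TMM-scaled RPKM, log axis) of the 35 TRIM genes at 1 RPKM or more in wild type, 1 symbol for each library, ordered by the wild-type mean; the open symbol is a count of 0 drawn at the 3-count floor. Trim10 stands apart in both knockout libraries, while most genes at the left of the axis have lower knockout than wild-type values.

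The summed level of the family overlapped between genotypes, while the share held by Trim10 did not. All TRIM genes together had 1679 and 2297 CPM in wild type and 2163 and 2030 CPM in knockout, which overlap. Without Trim10 the sums were 1643 and 2190 CPM against 1416 and 1505 CPM, so both knockout libraries lay below both wild-type libraries. Trim10 held 2.14% (95% Wilson interval 2.04 to 2.24) and 4.64% (4.51 to 4.77) of all TRIM counts in wild type. The knockout shares were 34.5% (34.1 to 34.9) and 25.9% (25.6 to 26.2). Only counting error enters these intervals and the 3-count limit.

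Among the 45 genes other than Trim21 that passed the filter, 1 rose (Trim10, 2.22%, where 5.9% of all genes tested passed as higher) and 0 fell by edgeR, where 0.392% of all genes did. Another 4 had an unadjusted p under 0.05 as higher and 12 as lower, shares of 11.1% (with Trim10) and 26.7% beside 15.5% and 12.3% of all genes. Fitted values were lower in the knockout for 32 of the 45 (71.1%, beside 52.1% of all genes) and higher for 13 (28.9%, beside 47.9%). Both knockout libraries lay below both wild-type libraries for 22 (48.9%, beside 30.1%) and above them for 8 (17.8%, beside 30.3%). The median log2 fold change, knockout over wild type, was -0.63 for the 45 and -0.056 for all genes tested. It was -0.63 between libraries 1 and -0.67 between libraries 2.

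The number of TRIM genes past the threshold depended on which libraries and which tool were used. Genotype was the only term of the main fit, so differences between the male and female patterns entered its spread. Each library left out also left its genotype with only the male or only the female pattern. Leaving out wild-type library 1 gave 14 lower (14.6% of all genes) and 1 higher (16.4%). Leaving out wild-type library 2 gave 2 lower (4.24%) and 5 higher (10.8%). Leaving out knockout library 2 gave Trim34b as lower (1.61%) and 1 higher (6.3%), and leaving out knockout library 1 gave 0 lower (0.211%) and 1 higher (4.23%). The DESeq2 Wald test gave 7 lower (6.58% of all genes) and 3 higher (11.6%), while limma-voom gave 0 (0.473%) and 1 (6.51%). Scaling by library totals alone, which moved the median of all genes from -0.056 to -0.56, gave 10 lower (10.2%) and 1 higher (5.78%). Without the low-count filter there were 3 lower (2.82%) and 1 higher (7.36%), and with the replicate number as a block 18 lower (19.7%) and 5 higher (22.4%). The other 4 settings called Trim10 alone: DESeq2 size factors (5.51% of all genes higher, 0.273% lower), at least 1 CPM in 2 libraries (6.44% and 0.515%), a non-robust fit (5.94% and 0.406%), and the removal of haemoglobin and mitochondrial genes (5.65% and 0.368%).

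**Figure D2:**
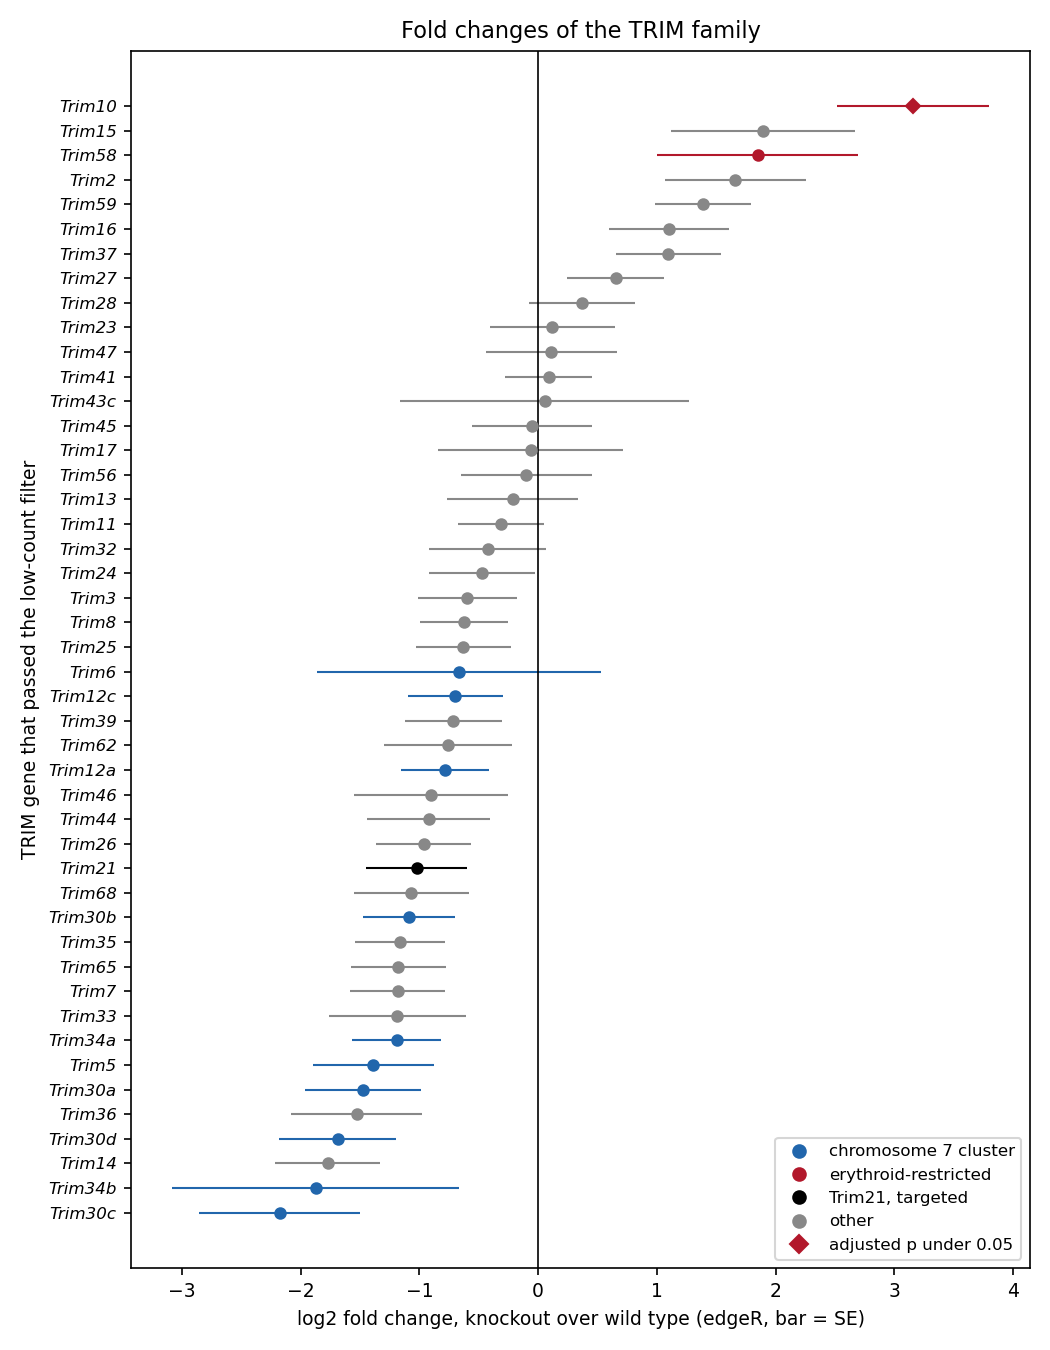
Log2 fold change, knockout over wild type (edgeR, bars are SE), of the 46 TRIM genes that passed the low-count filter, coloured by group, with a diamond for an adjusted p under 0.05. Trim10 at 3.16 is the only diamond, and the chromosome 7 array (blue) lies wholly below 0.

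Trim21 itself (ENSMUSG00000030966; GRCm38 minus strand, chromosome 7, from 102557921 to 102565486) was still counted in the knockout libraries. Its level was 27.9 and 40.9 CPM in wild type and 13.4 and 20.4 CPM in knockout, so the groups did not overlap. On the log2 scale the difference was -1.02 ± 0.42 (edgeR fit, ± SE here and below; adjusted p 0.17). Leaving out wild-type library 1 gave -1.29 (adjusted p 0.020), wild-type library 2 -0.72 (0.28), knockout library 1 -0.76 (0.89) and knockout library 2 -1.35 (0.36). Trim68, which lies 112 kb away, had a log2 fold change of -1.07 ± 0.48, and it passed only with wild-type library 1 left out among the 4 leave-outs (adjusted p 0.031). Counts over a whole gene do not check the genotype where the missing exons are not given.

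Trim10 was the TRIM gene that rose. It lies on chromosome 17, plus strand, from 36869574 to 36877833, and encodes a RING protein needed for the last steps of red cell differentiation. Its level was 35.9 and 106.5 CPM in wild type and 747 and 525 CPM in knockout. Both knockout libraries thus lay far above both wild-type libraries. From 71.2 ± 49.96 the mean went up to 636 ± 157 CPM (SD over 2 libraries each). The log2 fold change of 3.16 ± 0.64 passed edgeR's test (adjusted p 0.031). The log2 ratio was 4.38 between libraries 1 and 2.30 between libraries 2.

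Trim58, an E3 ligase of late erythroblasts that acts on dynein before the nucleus is expelled, lies on chromosome 11, plus strand, from 58640465 to 58652404. It had 1.35 and 11.7 CPM in wild type and 20.8 and 26.2 CPM in knockout. The groups did not overlap, but the wild-type libraries differed from each other by more than the knockout libraries did. Its log2 fold change did not pass (1.85 ± 0.85, adjusted p 0.20). It was 4.12 when wild-type library 2 was left out (adjusted p 9.9e-10) and 0.995 when wild-type library 1 was (adjusted p 0.089).

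Erythroid markers were higher in the knockout, as both genes were. The 15 markers were all higher in the knockout (beside 47.9% of all genes), 7 passed (beside 5.9%) and none was at 0. With the globins, the 15 summed to 75100 and 33620 CPM in wild type and 477000 and 156300 CPM in knockout. Wild-type library 1, where Trim10 and Trim58 were lowest, was thus the higher one of its genotype. The 11 that are not globins had the opposite order in wild type. They summed to 1535 and 2457 CPM in wild type and 18840 and 11700 CPM in knockout. In wild type, Trim10 equalled 2.34% and 4.34% of that sum without globins, and the knockout values were 3.96% and 4.49%. Its share of these 11 markers overlapped between genotypes while its level differed. For Trim58 the wild-type values were 0.0882% and 0.476% and the knockout values 0.111% and 0.224%, which also overlap. Between the knockout libraries, the marker sum was higher in library 1 and Trim58 in library 2. Trim10 had 26.5 and 9.12 counts for each Trim58 count in wild type, against 35.9 and 20.1 in knockout.

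**Figure D3:**
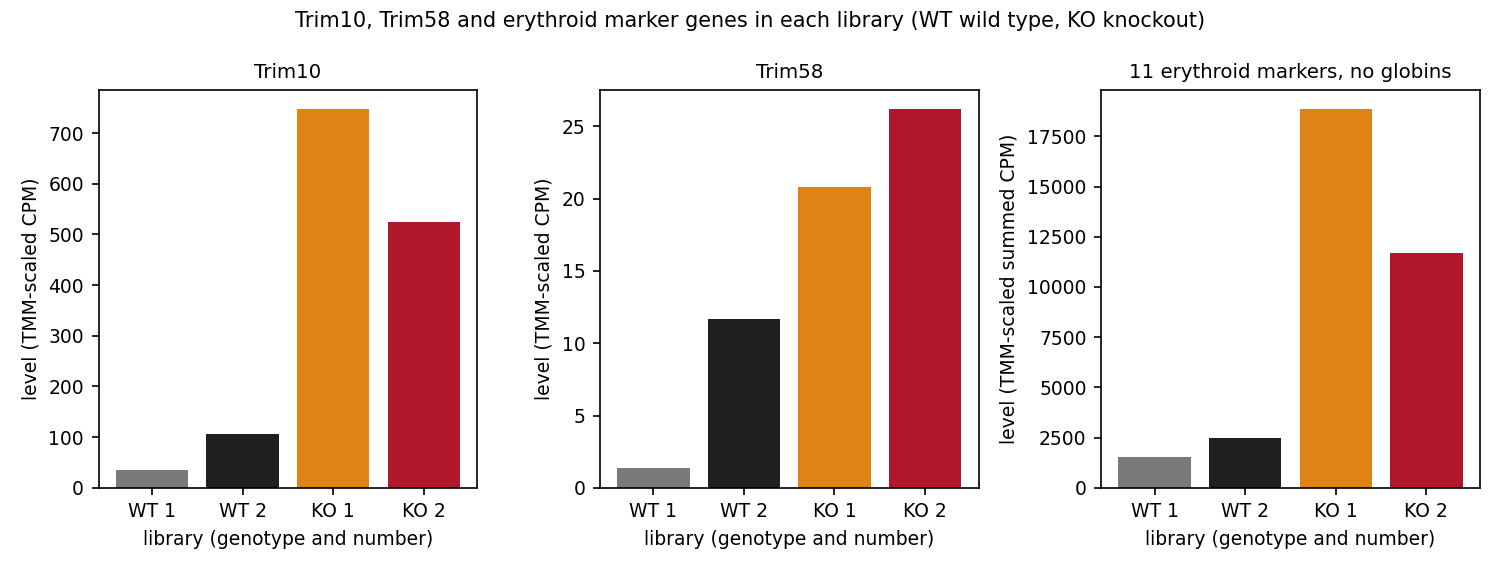
Bars give the level in each library (TMM-scaled CPM, axes from 0) of Trim10, of Trim58 and of 11 erythroid marker genes other than globins, summed. Knockout libraries are higher in all 3 panels, and wild-type library 1 is the lowest.

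The neighbours of Trim10 did not share one direction. Trim15, a focal adhesion protein whose gene lies 2.36 kb from Trim10, had 5, 14, 21 and 32 counts, which is under 1 CPM everywhere, and did not pass (1.89 ± 0.78 on the log2 scale, adjusted p 0.17, and 2.75 with wild-type library 2 left out). Trim26, which targets the transcription factor IRF3 and lies another 1.29 kb beyond Trim15, had 115, 145, 53.2 and 80.2 CPM, with both knockout libraries below wild type (-0.97 ± 0.40, adjusted p 0.17, or 0.041 with wild-type library 1 left out). Trim40 on the other side had 9, 12, 2 and 8 counts and Trim31 had none. Trim39, a regulator of apoptosis elsewhere on chromosome 17, had 46.4, 70.4, 30.1 and 41.2 CPM (-0.71 ± 0.40). On chromosome 11, Trim17 and Trim11 lie within 5 kb of each other, and 302 kb beyond Trim58. Trim11 had 72.6, 62.7, 49.3 and 59.5 CPM, and its knockout values were below wild type by less than the SE (-0.31 ± 0.36).

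The array on chromosome 7 spans 289 kb from 104218793 to 104507849 and lies 1.65 to 1.90 Mb from Trim21. All 10 of its genes passed the filter, and all 10 had lower fitted values in the knockout, with a median log2 fold change of -1.29 (-0.056 for all genes tested). The libraries did not overlap for 9 of the 10 (beside 30.1% of all genes). By edgeR 0 passed, and 6 had an unadjusted p under 0.05 (beside 12.3%). The DESeq2 Wald test called 5 of them lower (6.58% of all genes), Trim5, Trim30a, Trim30c, Trim30d and Trim34a. With wild-type library 1 left out edgeR called those 5 and Trim30b, and with wild-type library 2 left out it called none.

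Trim30a (minus strand, 104409025 to 104465193) had 72.7 and 132.5 CPM in wild type and 25.4 and 48.3 CPM in knockout. The difference on the log2 scale was -1.48 ± 0.49 (adjusted p 0.11). Trim30d, the neighbouring copy, had 24.4 and 45.0 CPM in wild type and 7.75 and 13.7 CPM in knockout, or -1.69 ± 0.49 on the log2 scale (adjusted p 0.086). In both genes the 2 wild-type libraries were the 2 highest, and library 1 was the lower one of each genotype. Trim30b had 52.4, 70.1, 25.1 and 32.7 CPM (-1.08 ± 0.39, adjusted p 0.13). Trim30c, the copy that shares no read-length window with another gene, had 1.96, 4.84, 0.506 and 0.972 CPM. It had the lowest fitted value of the family (-2.18 ± 0.68, adjusted p 0.098), which was -1.38 with wild-type library 2 left out. With wild-type library 1 left out the adjusted p was 0.0017 for Trim30a, 0.018 for Trim30b, 0.0024 for Trim30c and 5.2e-04 for Trim30d.

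Trim34a had 102.5 and 119 CPM in wild type and 42.9 and 54.1 CPM in knockout, or -1.19 ± 0.38 on the log2 scale (adjusted p 0.10). Its near copy Trim34b was counted 59, 118, 0 and 43 times, so the value of 0 was in knockout library 1. Its log2 fold change was -1.87 ± 1.21 (adjusted p 0.34), or -0.96 with that library left out, and it passed where that library stood alone for the knockout. Trim34b took 1.28% (0.996 to 1.65) and 2.07% (1.74 to 2.48) of the counts of both copies in wild type and 1.81% (1.35 to 2.43) in knockout library 2. In knockout library 1 it took 0%, with an upper Wilson bound of 0.347%. Since the copies share up to 42.5% of their windows, the sum is firmer than the split.

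Trim5 had 24.0 and 60.4 CPM in wild type and 15.4 and 16.9 CPM in knockout (-1.39 ± 0.51, adjusted p 0.14). Wild-type library 1 was closer to the knockout than to wild-type library 2, and leaving the latter out gave -0.57 on the log2 scale. Trim12a, with 96.9, 115, 67.5 and 55.3 CPM, and Trim12c, with 59.96, 91.9, 52.6 and 41.1 CPM, had smaller differences (-0.78 ± 0.37 and -0.70 ± 0.40). Trim6 was counted 16, 31, 0 and 26 times, and it is the one gene of the array whose genotypes overlapped (-0.67 ± 1.2).

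**Figure D4:**
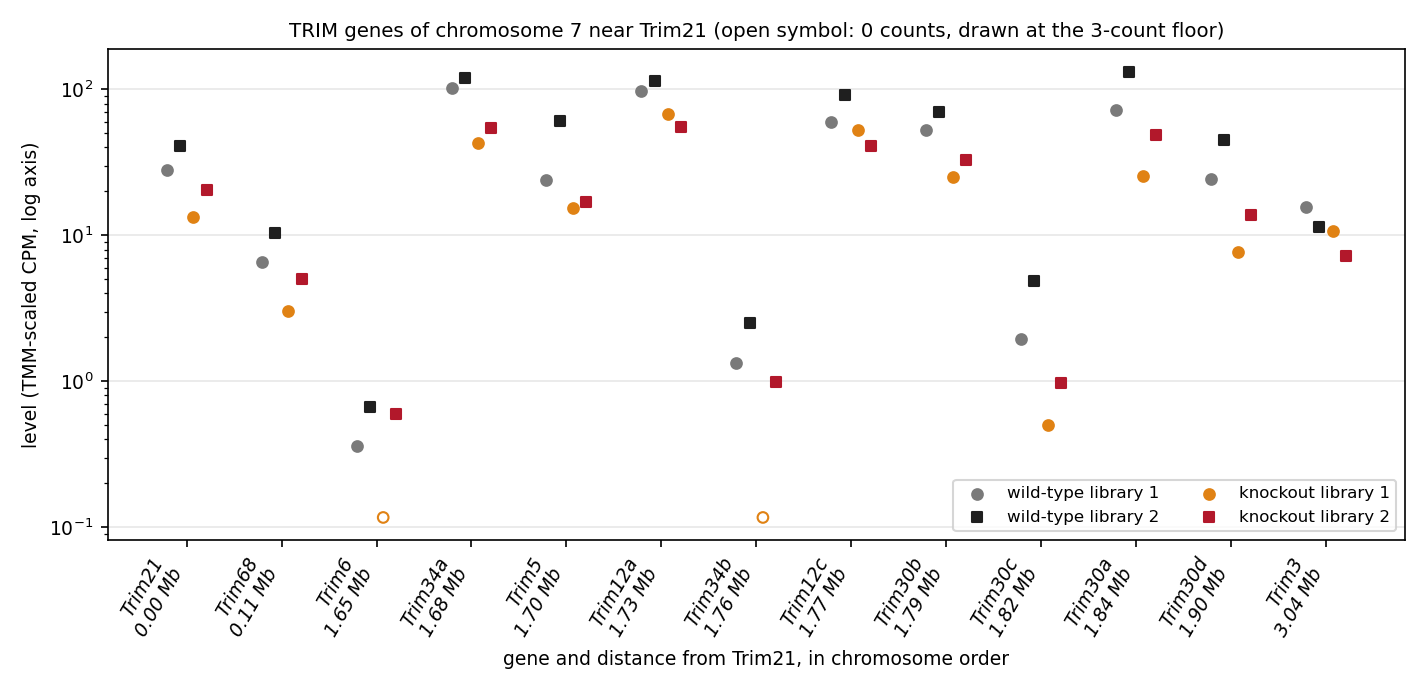
Level in each library (TMM-scaled CPM, log axis) of Trim21 and 12 TRIM genes within 3.04 Mb of it, in chromosome order with their distance from Trim21; open symbols are counts of 0 drawn at the 3-count floor. Knockout symbols lie below wild-type symbols for every gene except Trim6, where knockout library 2 falls between the wild-type libraries.

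The summed level of the array was 436 and 642 CPM in wild type and 237 and 265 CPM in knockout. Lymphocyte markers moved with it: the 9 B cell genes summed to 6428 and 5597 CPM in wild type and 3386 and 2767 CPM in knockout, and the 9 T cell genes to 1549 and 1097 against 639 and 594 CPM, with none at 0. Their median log2 fold changes were -1.13 and -1.06. NK cell markers were also lower, summing to 101 and 84.5 CPM in wild type and 54.8 and 54.2 CPM in knockout. Macrophage and monocyte markers had higher sums, with 817 and 612 CPM in wild type and 1174 and 1069 CPM in knockout. Of these 8 genes, 6 had higher and 2 lower fitted values (75% higher, beside 47.9% of all genes), and 0 passed by edgeR. Both knockout libraries lay above both wild-type libraries for 4 (50%, beside 30.3%) and below them for 1 (12.5%, beside 30.1%). Dendritic cell markers overlapped in their sum (107 and 57.3 against 72.9 and 59.2 CPM). Of these 6 genes, 5 had lower and 1 higher fitted values (83.3% lower, beside 52.1% of all genes), and 0 passed by edgeR. Both knockout libraries lay below both wild-type libraries for 4 (66.7%, beside 30.1%) and above them for 1 (16.7%, beside 30.3%). Within wild type the array was higher in library 2, while the B cell and T cell sums were higher in library 1. The part of lymphocyte markers in the array's values was not tested. Further along the chromosome, Trim3, a brain-enriched member with NHL repeats, lies 3.04 Mb from Trim21 and had 15.6, 11.4, 10.7 and 7.18 CPM (-0.60 ± 0.42). Trim68 had 6.52, 10.4, 3.04 and 5.02 CPM, with an adjusted p of 0.20.

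Regulators of innate signalling outside the array were mixed. Of 15 such genes listed, 13 passed the filter, 10 with lower and 3 with higher fitted values (76.9% lower, beside 52.1% of all genes), and 0 passed the threshold by edgeR (beside 5.9% higher and 0.392% lower). At an unadjusted p under 0.05, 3 were lower and 1 higher (23.1% and 7.69%, beside 12.3% and 15.5%). The median was -0.43. By DESeq2, Trim14 passed as lower and Trim59 as higher (beside 6.58% and 11.6% of all genes). This list and all others, the array and the marker lists above included, were chosen with earlier results on these libraries known.

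Trim14, an adaptor without a RING finger in RIG-I and cGAS signalling, had 14.6 and 21.6 CPM in wild type and 4.17 and 6.39 CPM in knockout. This difference of -1.77 ± 0.44 on the log2 scale had the smallest adjusted p among lower TRIM genes (0.060). The log2 ratio was -1.81 between libraries 1 and -1.76 between libraries 2, so the 2 pairs hardly differed. It passed without wild-type library 1 (adjusted p 7.2e-04) or 2 (0.021), and missed the threshold without knockout library 1 (0.53) or 2 (0.13).

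Trim65, which ubiquitinates the RNA sensor MDA5, had 28.8, 37.6, 12.6 and 16.8 CPM (-1.18 ± 0.40, adjusted p 0.12, or 0.012 with wild-type library 1 left out). Trim25, the ligase that activates RIG-I, had 79.2, 108, 50.0 and 71.2 CPM (-0.63 ± 0.40, adjusted p 0.33). Trim8, which acts in TNF and interleukin-1 signalling, had 78.6, 63.4, 41.4 and 50.8 CPM (-0.62 ± 0.37). In all 3 the genotypes did not overlap, and for Trim25 and Trim8 the gap between the nearest libraries was smaller than that within wild type. Trim56, a ligase in cGAS and STING signalling, had 72.3 and 222 CPM in wild type and 123 and 152 CPM in knockout, so both knockout libraries fell between the wild-type ones. Its log2 fold change was -0.10 ± 0.55, or 0.93 if wild-type library 2 was left out and -0.71 if wild-type library 1 was.

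Trim59 had the largest positive fold change of the listed regulators. It had 50.5 and 73.7 CPM in wild type and 185 and 141 CPM in knockout, or 1.39 ± 0.40 on the log2 scale (adjusted p 0.085). It passed without wild-type library 2 (adjusted p 0.0053) and missed the threshold when any other single library was left out (0.064 to 0.65). Cell cycle markers moved with it, summing to 279 and 703 CPM in wild type and 3258 and 2682 CPM in knockout. Their part in this value was not tested. Trim13, its relative with a membrane anchor, had 1.76, 3.49, 2.45 and 2.08 CPM (-0.21 ± 0.55), which overlap.

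Further members had lower values in both knockout libraries or overlapped. Trim35, first described in blood cell lines that switched lineage, had 69.7, 58.9, 24.7 and 32.7 CPM (-1.16 ± 0.38, adjusted p 0.11). Trim7, a partner of the glycogen primer glycogenin, had 60.2, 90.6, 29.1 and 37.2 CPM (-1.18 ± 0.40, adjusted p 0.12). Both were without overlap. The gap between the lowest wild-type and the highest knockout library was larger than that within wild type for Trim35, and smaller for Trim7. Trim36, which binds microtubules, had 3.09, 5.54, 1.17 and 1.81 CPM (-1.53 ± 0.55, adjusted p 0.13). Trim46, an organiser of axonal microtubules, had 3.03, 1.35, 1.52 and 0.833 CPM, which overlap (-0.90 ± 0.65, or -0.22 with wild-type library 1 left out). Trim44, a member without a RING finger, had 52.7, 133, 39.7 and 58.4 CPM and overlapped as well (-0.92 ± 0.52). Trim44 was at -0.10 with wild-type library 2 left out, and at -1.46 with wild-type library 1 left out (adjusted p 0.0092). With the latter left out, Trim7 (adjusted p 0.0075) and Trim36 (0.015) also passed, and with wild-type library 2 left out Trim35 did (0.020).

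Members with higher values had few features in common. Trim37, a ligase of peroxisomes and centrosomes with a MATH domain, had 12.4 and 23.6 CPM in wild type and 36.6 and 40.5 CPM in knockout (1.10 ± 0.44, adjusted p 0.16, and 0.0076 if wild-type library 2 was left out). Trim2, an NHL-repeat protein that binds neurofilament, had 1.06 and 3.04 CPM against 6.62 and 6.37 CPM (1.66 ± 0.59, adjusted p 0.13, and 0.0010 if that library was left out). For both genes wild-type library 1 was the lowest. Trim16, which acts at damaged lysosomes, had 1.74, 1.28, 3.35 and 3.15 CPM (1.10 ± 0.51, adjusted p 0.20). Trim27, a ligase that binds the retromer-linked MAGE-L2 complex, had 67.0, 41.8, 97.5 and 73.4 CPM (0.65 ± 0.41, adjusted p 0.33). Trim23, which carries an ARF domain, had 6.57, 18.2, 14.4 and 12.5 CPM (0.12 ± 0.53). The fitted values of Trim32 and Trim45 were lower in the knockout. Trim32 had 4.88, 4.15, 2.41 and 4.28 CPM (-0.43 ± 0.49). Trim45, with a filamin domain, had 3.03, 2.27, 2.18 and 2.92 CPM (-0.051 ± 0.50). These last 3 overlapped between genotypes.

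The 3 tested nuclear members with a PHD finger and bromodomain overlapped between genotypes. Trim28 had 214 and 116 CPM in wild type and 241 and 186 CPM in knockout (0.37 ± 0.44, adjusted p 0.61). The value was -0.15 when scaled by library totals alone and -0.0040 without wild-type library 2. Trim24, a coregulator of the retinoic acid receptor, had 23.5, 45.8, 21.8 and 28.2 CPM (-0.47 ± 0.45). Trim33, which acts with SMAD4 in TGF-beta signalling and in blood formation, had 28.0, 82.7, 17.8 and 30.9 CPM (-1.19 ± 0.58, adjusted p 0.23). Its value was -0.20 with wild-type library 2 left out, and it passed with wild-type library 1 left out (-1.78, adjusted p 0.0021) and with library totals alone (0.047). In both, wild-type library 1 lay between the 2 knockout libraries.

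Partners of these proteins were read from lists. Of all genes tested, 5.9% passed by edgeR as higher and 0.392% as lower. At an unadjusted p under 0.05 the shares were 15.5% and 12.3%. Of 7 KRAB silencing partners of Trim28, 0 passed by edgeR and 0 had an unadjusted p under 0.05, with Cbx3 at 0.82 ± 0.38, Morc3 at -0.91 ± 0.50 and Atf7ip at -0.83 ± 0.48 on the log2 scale. With wild-type library 1 left out, Morc3 was at -1.39, Atf7ip at -1.28 and Cbx3 at 0.57. With wild-type library 2 left out, Morc3 and Atf7ip were both at -0.21 and Cbx3 was at 1.11. Of 5 partners of Trim33 and Trim24, 0 passed by edgeR and 1 had an unadjusted p under 0.05, Smad4, with 32.3, 60.3, 19.4 and 21.8 CPM (-1.17 ± 0.44). Smad3 (-0.91 ± 0.40) and Spi1 (0.71 ± 0.48) followed. With wild-type library 1 left out, Smad4 (adjusted p 0.0045), Smad3 (0.045) and Spi1 (1.42, adjusted p 0.022) passed, and Spi1 was at 0.23 with wild-type library 2 left out. Smad4 also passed with library totals alone (0.044). Of 5 genes of the RIG-I pathway around Trim25, 0 passed by edgeR. Ddx58, which encodes RIG-I, had 74.4, 127, 24.4 and 39.2 CPM, an unadjusted p of 0.0073 and an adjusted p of 0.074 (-1.66 ± 0.45). It passed by DESeq2 (adjusted p 0.0071), with no filter (0.025), with library totals alone (0.0089) and with wild-type library 1 (6.5e-04) or 2 (0.026) left out, and not with knockout library 1 (0.60) or 2 (0.14) left out. Mavs (0.30 ± 0.36) and Rnf135 (-0.47 ± 0.43) were the next by p.

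Of 11 E2 enzymes that hand ubiquitin to TRIM ligases, 1 rose (9.09%, beside 5.9% of all genes). Ube2e3 had 18.3 and 17.0 CPM in wild type and 74.7 and 51.5 CPM in knockout, or 1.84 ± 0.40 on the log2 scale (adjusted p 0.039). It missed the threshold without knockout library 1 (adjusted p 0.37) or 2 (0.057) and with library totals alone (0.14). Ube2n, the E2 of lysine-63 chains, had 68.3, 63.8, 126 and 105 CPM (0.81 ± 0.37, adjusted p 0.20), and its cofactor Ube2v1 had 173, 98.0, 307 and 228 CPM (0.98 ± 0.45, adjusted p 0.20, or 0.033 with wild-type library 1 left out). Of 7 genes that act with Trim21 or encode other Ro and La autoantigens, 0 passed by edgeR (beside 5.9% of all genes higher and 0.392% lower). The proteasome deubiquitinase Psmd14 alone had an unadjusted p under 0.05 (14.3%, beside 15.5% of all genes as higher). It had 53.8, 45.5, 101 and 86.2 CPM (0.91 ± 0.37, adjusted p 0.16). Ssb, which encodes the La autoantigen, was at 0.58 ± 0.40 and Trove2, which encodes Ro60, at -0.83 ± 0.62, or 0.14 with wild-type library 2 left out.

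Relatives of the family under other names varied too. Pml, the scaffold of nuclear bodies, had 214 and 217 CPM in wild type and 150 and 150 CPM in knockout, with almost no spread within a genotype (-0.52 ± 0.37, adjusted p 0.38). Mid1, a microtubule-bound ligase, had 16.6, 31.6, 8.72 and 14.7 CPM (-1.04 ± 0.48, adjusted p 0.21, or 0.010 with wild-type library 1 left out). Mefv, which encodes the inflammasome protein pyrin of granulocytes, had 10, 9.52, 15.3 and 16.2 CPM (0.69 ± 0.37, adjusted p 0.26). The 13 neutrophil markers summed to 914 and 380 CPM in wild type and 29770 and 27750 CPM in knockout, none at 0, and their part in the Mefv value was not tested. Mid2 stayed under 0.39 CPM in every library and was not tested.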

How the data were processed

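Estimated counts for 25601 Ensembl rows in 4 libraries were deposited by the authors as a single table. Listed in the submitters' processing notes, with no role for each, are RSEM 1.2.25, STAR 2.5.0, the build GRCm38 and SAMtools 1.18. Annotation release and strand setting are not stated there, so overlapping genes such as Trim47 and Trim65 are uncertain. The values were whole numbers already. The 92 spike-in rows held 0 counts and were left out, and 25251 of 25509 gene rows were named through GENCODE M21 (GRCm38).

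Knockout and wild type were compared with edgeR 4.0.16 (R 4.3.3): TMM scaling, filterByExpr, robust quasi-likelihood F test, genotype as the only term, Benjamini-Hochberg adjustment over 13532 genes. With 2 residual degrees of freedom, an SE is the log2 fold change divided by the root of F. RPKM used merged exon length. Alternatives used DESeq2 1.42.0, limma 3.58.1, other scalings and filters, the replicate number as a block, and each library left out. The 2 libraries of a genotype did not agree within sampling noise (chi-square per degree of freedom 476 for wild type and 345 for knockout).

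Members and lists were chosen with earlier results of these data known. Genes were named by rule: Trim21, genes past the threshold, the chromosome 7 array, Trim10 and Trim58, the 8 largest rises and falls, the 8 highest levels, and up to 3 genes of each list. Trim7, Trim25, Trim38, Trim39 and Trim66, genes that share read-length windows, the neighbours of Trim10 and Trim58, and members at or near 0 were added after their values were seen.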

Additional observations from a re-analysis of the deposited data

How the results depend on the processing

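The rise of Trim10 held in all 13 alternatives, with log2 fold changes of 2.55 to 4.15 and adjusted p of 2.9e-18 to 0.038. The number of TRIM genes other than Trim21 past the threshold did not hold. It was 3 higher and 7 lower by the DESeq2 Wald test, 10 lower with library totals alone and 3 lower with no filter. With 1 library left out it ranged from 1 to 5 higher and from 0 to 14 lower. Over all genes DESeq2 called 1575 higher and 891 lower, the unfiltered fit 1278 and 490, and library totals alone 1376 lower. With 1 library left out 601 to 2300 were higher and 30 to 2047 lower. The family median stayed below 0 throughout. It was -0.67 with at least 1 CPM in 2 libraries, -0.68 by limma-voom, -0.67 unfiltered and -1.10 with library totals alone, and -0.71 to -0.37 with 1 library left out. The cause of these differences was not tested. With 1 library left out, the lone library of a genotype was assumed to vary like the other pair. That genotype then held only the male or only the female pattern.

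With the replicate number of the titles as a block, 5 TRIM genes passed as higher and 18 as lower, and over all genes 3036 and 2669. The 18 included 8 of the 10 array genes, and with the block Trim21 (adjusted p 0.0029) and Trim58 (2.8e-11) also passed. The labels do not say that a number marks a shared litter or day. Deviations of same-numbered libraries correlated at 0.51, and the numbers follow the male and female pattern.

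For the 38 TRIM genes chosen by the naming rule, directions turned in 13 of 492 comparisons with an alternative, each for a gene that did not pass in either. Trim17, Trim41, Trim43c and Trim47, whose log2 fold changes were near 0, turned as well in some alternatives. With 1 library left out, log2 fold changes ran from -0.64 to 0.36 for Trim13, -0.45 to 1.03 for Trim23, -0.89 to 0.088 for Trim24, -0.0040 to 0.86 for Trim28, -0.27 to 0.16 for Trim45 and -0.71 to 0.93 for Trim56. For Trim6 they ran from -7.33, fitted against the lone count of 0 in knockout library 1, to 0.23. The turns came without wild-type library 2 for Trim13, Trim24, Trim28 and Trim56, without wild-type library 1 for Trim23 and Trim45 (0.16), and without knockout library 1 for Trim6, Trim45 (0.14) and Trim56 (0.040). With library totals alone Trim23 was at -0.45 and Trim28 at -0.15. Trim56 was at 0.107 by limma-voom and at 0.105 with the block.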
